A study of Mus musculus with 6 samples.

Results

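The proteasome genes of these arrays were taken as every gene with a probe set whose only platform symbol runs from Psma to Psmg followed by a number, and 49 genes with 103 probe sets met that rule. They were divided into an immune set (Psmb8, Psmb9, Psmb10 and Psme1) and a constitutive set of 45 genes. Psme2, the remaining gene of the 5 named for the immune set, has 1 probe set, which the platform annotation shares with another gene, and it was left out. Each gene was represented by its brightest probe set over the 6 arrays, and 48 of the 49 passed the filter on dim probe sets among 11625 genes in all. Psmb11, the thymus subunit, did not pass, and was not above background on any array. Psmc3ip and Psme3ip1 match the letters of the rule but encode no subunit, and they are counted with the constitutive set because the rule places them there.

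The samples were megakaryocyte progenitors (MkP), cells of fetal liver and bone marrow committed to forming megakaryocytes, which shed platelets. The study holds 3 arrays of fetal liver MkP, taken at E13.5, and 3 arrays of bone marrow MkP, from adults aged 12 to 18 weeks, so that age differs together with tissue. All mice were wild type C57BL/6, and all cells were sorted as CD41+ CD150+ c-kit+ cells without Sca-1 or lineage markers. The labels call the samples biological replicates without giving the number of mice in each, so the p-values measure the spread between these samples.

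The proteasome is the protease that degrades most ubiquitin-tagged proteins. Its 20S core is a barrel of alpha rings, which gate the entrance, and beta rings, which carry the catalytic sites, and the 19S cap recognises, unfolds and feeds in the substrate. In cells exposed to interferon, and constitutively in many blood cells, Psmb8, Psmb9 and Psmb10 replace the catalytic subunits Psmb5, Psmb6 and Psmb7, and Psme1 with Psme2 forms another cap. The resulting immunoproteasome makes peptides suited to presentation on major histocompatibility complex (MHC) class I molecules.

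The values are MAS5 signals, a linear brightness per probe set, and changes are log2 fold changes (fetal liver minus bone marrow), each followed by the SE, or standard error, that limma gave it. A gene is called higher or lower where its limma p, adjusted by Benjamini-Hochberg over all 11625 genes, was under 0.05. By that rule 350 genes (3.01%) were higher and 553 (4.76%) lower in fetal liver MkP, so 38.8% of the calls were higher. Centring each array on its median in place of the deposited scaling shifted the median of all genes to 0.26, against 0.0065 as deposited, and gave 897 higher and 438 lower calls, a share of 67.2% higher. The sort genes Kit, Slamf1 and Itga2b were above background on all 6 arrays, at means of 870.5, 775 and 3205 in fetal liver MkP and 1298, 643 and 4918 in bone marrow MkP, and none of them was called. Arrays correlated across genes at 0.939 to 0.963 within fetal liver MkP, 0.901 to 0.921 within bone marrow MkP and 0.849 to 0.878 between the tissues. The ratio of 5′ to 3′ Actb control signal was 0.961 ± 0.065 on fetal liver arrays and 1.09 ± 0.038 on bone marrow arrays (SD, n = 3 each), without overlap (exact two-sided permutation p = 0.1, the smallest that 3 against 3 allows; 4 array measures were tested). The same ratio for Gapdh was 0.330 ± 0.192 on fetal liver arrays and 0.193 ± 0.103 on bone marrow arrays (SD, n = 3 each; exact two-sided permutation p = 0.3), and the part of these ratios in the results was not tested.

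In the immune set, the catalytic subunits Psmb9 and Psmb8 were far lower in fetal liver MkP, while Psmb10 and the cap subunit Psme1 were not called. The set thus had 2 lower and 0 higher calls among 4 tested genes, and 4.76% of all genes were called lower. The median change of the set was -1.57, and that of all genes was 0.0065. All 4 changes were negative, as were 49.5% of all genes, except that Psme1 turned to 0.057 (adjusted p = 0.886 in limma) under median centring.

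Psmb9 had signals of 455, 648 and 617 in fetal liver MkP, against 6131, 7104 and 8039 in bone marrow MkP. Every fetal liver array was dimmer than every bone marrow array by a wide margin, and the mean in bone marrow MkP was 12.4 times that in fetal liver MkP. The change was -3.63 ± 0.23 (SE; limma adjusted p = 2.56e-05). Psmb8 had signals of 525, 691 and 722 in fetal liver MkP, against 3841, 3581 and 6033 in bone marrow MkP. The groups were again fully apart, with bone marrow replicate 3 the brightest array, and the change was -2.76 ± 0.26 (limma adjusted p = 2.08e-04). Its probe set is of a type that can match more than 1 transcript (suffix _a_at), and the other probe set for Psmb8 was too dim to be tested, so no value for Psmb8 remains when such probe sets are left out. In bulk RNA, fewer cells that express a gene and less RNA of it per cell cannot be told apart.

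Psmb10, the immune subunit with a trypsin-like site, had signals of 1068, 842 and 1104 in fetal liver MkP, against 1139, 1205 and 1617 in bone marrow MkP. The groups did not overlap, but the highest fetal liver array lay just under the lowest bone marrow array. The change was -0.39 ± 0.25 (limma adjusted p = 0.416), which is not a call. Psme1, which stimulates the opening of the core, had signals of 8763, 6049.7 and 6559.9 in fetal liver MkP, against 9912, 6786.5 and 7736 in bone marrow MkP. Here the groups overlapped, replicate 1 was the brightest array of both tissues, and the change was -0.19 ± 0.20 (limma adjusted p = 0.637). Of the immune set, 3 of 4 genes had all fetal liver signals below all bone marrow signals, as did 14.2% of all genes.

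**Figure D1:**
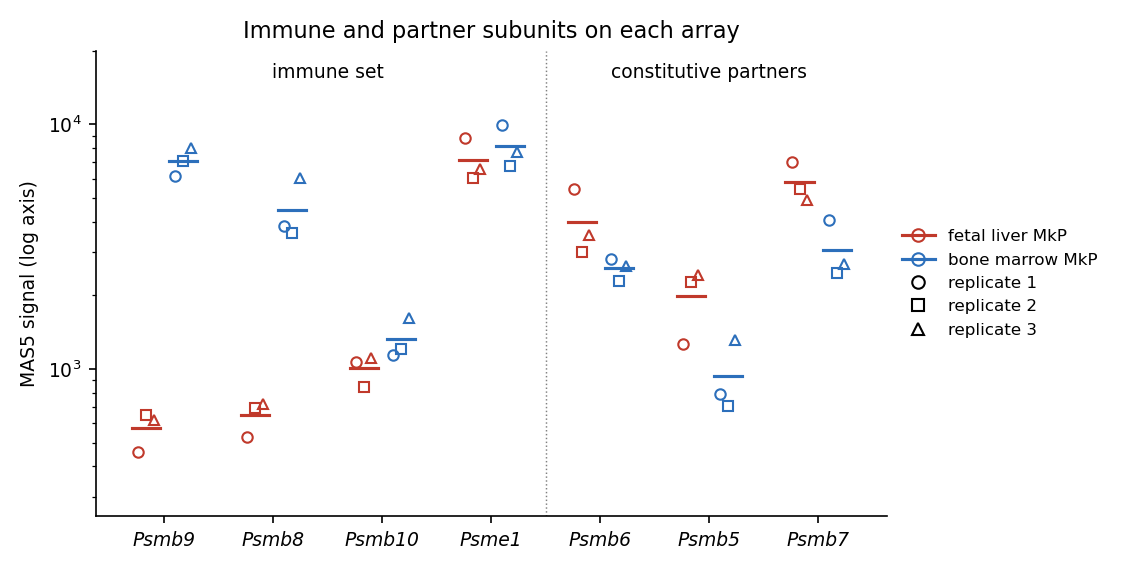
MAS5 signal (log axis) of the 4 immune set genes and of the 3 constitutive catalytic subunits on each array, fetal liver MkP in red and bone marrow MkP in blue, with symbols for replicates and bars for means. Psmb9 lies between 455 and 648 in fetal liver MkP, against 6131 to 8039 in bone marrow MkP, while Psmb6, Psmb5 and Psmb7 have higher means in fetal liver MkP.

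Each immune catalytic subunit takes the position of 1 constitutive subunit in the beta ring, so the difference in log2 signal within a pair was followed from array to array. Probe sets differ in brightness for the same amount of RNA, so only the shift of the difference between tissues is read, not its level. For Psmb9 minus Psmb6, the pair with the caspase-like constitutive site, the differences were -3.57, -2.21 and -2.51 in fetal liver MkP and 1.12, 1.63 and 1.61 in bone marrow MkP, a shift of -4.21. For Psmb8 minus Psmb5, the pair of the chymotrypsin-like site, they were -1.27, -1.71 and -1.74 in fetal liver MkP and 2.27, 2.34 and 2.20 in bone marrow MkP, a shift of -3.84. In both pairs every fetal liver array lay far below every bone marrow array, and the shifts came to 18.6-fold and 14.3-fold. Psmb10 minus Psmb7, the pair of the trypsin-like site, had differences of -2.72, -2.69 and -2.15 in fetal liver MkP and -1.83, -1.03 and -0.74 in bone marrow MkP. Its shift of -1.32, or 2.49-fold, was the smallest of the 3 and again without overlap. In this pair Psmb7 changed more (0.93) than Psmb10 (-0.39), while in the other pairs the immune subunit changed more than its partner. Each of the 3 pairs gave an exact two-sided permutation p of 0.1 (0.1 after Benjamini-Hochberg over the 3), which is the smallest that 3 arrays against 3 can give.

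**Figure D2:**
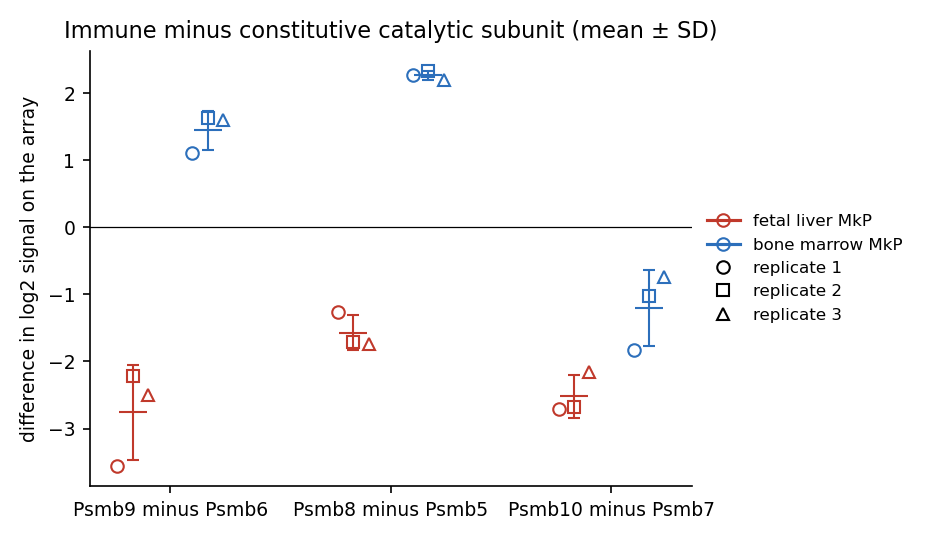
Difference in log2 signal between the immune and the constitutive catalytic subunit of each pair on each array (points), with mean ± SD (n = 3), fetal liver MkP in red to the left and bone marrow MkP in blue to the right. The shift of fetal liver minus bone marrow is -4.21 for Psmb9 minus Psmb6, -3.84 for Psmb8 minus Psmb5 and -1.32 for Psmb10 minus Psmb7.

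Of the 3 constitutive partners, 1 was called higher (3.01% of all genes were) and the others were not called. Psmb7 had signals of 7033, 5432 and 4911 in fetal liver MkP, against 4065, 2464 and 2694 in bone marrow MkP. All fetal liver arrays were brighter, and Psmb7 was called higher, by 0.93 ± 0.23 (limma adjusted p = 0.0376). Psmb5 had signals of 1269.7, 2262 and 2415 in fetal liver MkP, against 793, 704 and 1307 in bone marrow MkP. Fetal liver replicate 1 fell within the bone marrow range, and the change of 1.08 ± 0.33 was not called (limma adjusted p = 0.0741). Psmb6 had signals of 5419, 3009.6 and 3517 in fetal liver MkP, against 2824, 2289 and 2636 in bone marrow MkP. Its groups were apart, but the change of 0.58 ± 0.24 was not called (limma adjusted p = 0.176), and its fetal liver arrays spread more than its bone marrow arrays.

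The regions around the starts of these genes are shown because interferon-responsive factors are known to act on immune subunit genes, and Nfe2l1 on constitutive ones. They come from RefSeq on GRCm38.p6, run 5′ to 3′ from 250 bases before the start to 50 after it, and cover chr17:34187281-34187580 (minus strand) for Psmb9, chr17:34197945-34198244 (plus strand) for Psmb8, chr14:55578244-55578543 (plus strand) for Psme1, chr11:70525107-70525406 (plus strand) for Psmb6, chr14:54617946-54618245 (minus strand) for Psmb5 and chr11:107479278-107479577 (plus strand) for Psmd12. Capitals mark matches on either strand to an interferon-stimulated response element (GAAA, any 2 bases, GAAA), a gamma-activated site (TTCNNNGAA), an antioxidant response element (TGACNNNGC) or an ETS factor core (CCGGAAG), none of which overlapped another in these windows.
Psmb9: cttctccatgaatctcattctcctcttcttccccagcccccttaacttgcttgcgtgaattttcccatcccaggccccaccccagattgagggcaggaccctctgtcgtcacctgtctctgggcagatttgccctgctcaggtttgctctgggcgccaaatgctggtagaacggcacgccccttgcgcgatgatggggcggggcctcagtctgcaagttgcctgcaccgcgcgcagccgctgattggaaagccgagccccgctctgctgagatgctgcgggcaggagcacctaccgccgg
Psmb8: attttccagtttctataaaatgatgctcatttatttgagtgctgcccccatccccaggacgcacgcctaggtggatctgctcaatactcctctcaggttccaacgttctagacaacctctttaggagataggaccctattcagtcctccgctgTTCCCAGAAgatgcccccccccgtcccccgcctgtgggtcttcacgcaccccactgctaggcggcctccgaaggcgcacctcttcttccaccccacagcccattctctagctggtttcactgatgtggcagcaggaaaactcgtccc
Psme1: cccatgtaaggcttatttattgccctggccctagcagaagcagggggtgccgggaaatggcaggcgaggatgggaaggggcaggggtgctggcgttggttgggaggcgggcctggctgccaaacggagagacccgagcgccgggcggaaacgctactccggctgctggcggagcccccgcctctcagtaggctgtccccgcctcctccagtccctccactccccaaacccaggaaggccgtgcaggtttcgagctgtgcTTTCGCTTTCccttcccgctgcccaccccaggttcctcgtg
Psmb6: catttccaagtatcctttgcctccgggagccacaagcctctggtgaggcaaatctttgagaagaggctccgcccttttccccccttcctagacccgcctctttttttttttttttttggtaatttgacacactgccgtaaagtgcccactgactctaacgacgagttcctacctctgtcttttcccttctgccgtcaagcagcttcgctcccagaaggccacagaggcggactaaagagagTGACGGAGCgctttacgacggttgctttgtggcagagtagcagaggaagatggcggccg
Psmb5: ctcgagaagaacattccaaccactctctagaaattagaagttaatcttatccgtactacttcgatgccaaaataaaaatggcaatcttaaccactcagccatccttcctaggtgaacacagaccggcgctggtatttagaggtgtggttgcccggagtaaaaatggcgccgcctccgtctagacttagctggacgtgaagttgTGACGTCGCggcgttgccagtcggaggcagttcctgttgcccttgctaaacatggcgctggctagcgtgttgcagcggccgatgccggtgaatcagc
Psmd12: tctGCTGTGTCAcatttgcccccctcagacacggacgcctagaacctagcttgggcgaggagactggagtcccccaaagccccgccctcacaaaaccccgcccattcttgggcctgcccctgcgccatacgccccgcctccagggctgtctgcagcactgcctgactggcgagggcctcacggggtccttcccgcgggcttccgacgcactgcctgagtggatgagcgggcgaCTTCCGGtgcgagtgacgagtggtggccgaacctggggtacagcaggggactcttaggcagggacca

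The Psmb9 window held none of the 4 motifs. Psmb8 held a gamma-activated site starting at position -97 from the start, and Psme1 an interferon-stimulated response element starting at position 9 after it. Psmb6 and Psmb5 each held an antioxidant response element, starting at positions -9 and -47. Psmd12, a lid subunit called higher in fetal liver MkP, held an antioxidant response element at position -247 and an ETS core at position -17. Of the 5 immune set genes named by the rule, all with a window, 1 held the interferon-stimulated element and 1 the gamma-activated site, and 3.99% and 9.55% of the 27025 genes in the promoter table did. Of 35 constitutive subunit and chaperone genes with a window, 6 (17.1%) held the antioxidant element, against 14.0% of all genes, and 4 (11.4%) held the interferon-stimulated element. The ETS core, which was searched only after these windows had been read, was present in 14 of the 35 (40%) and in 0 of the 5 immune genes, against 9.93% of all genes and 12.9% of protein-coding genes. A match is a stretch of letters and not a shown binding site.

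Psmb9 and Psmb8 lie on chromosome 17 among genes of antigen presentation, and the neighbours of the pair were read in gene order. Psmb9 and Tap1, a subunit of the transporter that carries peptides to class I molecules, are transcribed away from each other, their starts are 226 bases apart, and their windows share 275 of 300 bases. Tap1 had signals of 143, 225 and 139 in fetal liver MkP, against 1254, 1778 and 1465 in bone marrow MkP. It was called lower by the fit, at -3.15 ± 0.33 (limma adjusted p = 4.66e-04), with no overlap of the groups. Tap2, the other transporter subunit, which follows Psmb8, had signals of 111, 131 and 133 in fetal liver MkP, against 187, 229 and 207 in bone marrow MkP. Those groups did not overlap either, but the change of -0.72 ± 0.41 was not called (limma adjusted p = 0.341). Over the 12 genes in this stretch from Brd2 to H2-Eb1, 10 were tested, Psmb9 and Psmb8 among them. All 10 changes were negative, as were 49.5% of all genes, and 5 were called lower, Psmb9 and Psmb8 included, against 4.76% of all genes. Of the 5, the class II genes H2-Ob and H2-Aa passed the filter on dim probe sets only through their bone marrow signals.

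The class II genes at the ends of the stretch were dim in fetal liver MkP. H2-Ob, part of a class II chaperone, had signals of 42.3, 10.2 and 9.58 in fetal liver MkP, of which 1 was above background, against 628, 1443 and 407 in bone marrow MkP (-5.21 ± 0.66, limma adjusted p = 0.00123). H2-Aa, a class II chain, was not above background on any fetal liver array and was at least 5.5-fold lower there (limma adjusted p = 0.0396), with signals of 95.2, 64.8 and 882 in bone marrow MkP. H2-Aa was called in 7 of 16 settings, with limma adjusted p up to 0.112. The class II genes H2-DMa, H2-DMb2 and H2-Ab1 were not called, at -3.51, -1.84 and -2.02 (limma adjusted p = 0.108, 0.237 and 0.0668). Brd2, a chromatin reader at the start of the stretch, was at 1894 ± 477 in fetal liver MkP and 2354 ± 240.0 in bone marrow MkP (SD, n = 3 each), a change of -0.34 ± 0.24 that was not called (limma adjusted p = 0.452).

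In the constitutive set, changes were small and ran mostly one way. Of 44 tested genes, 6 were called higher (3.01% of all genes were) and 1 lower (4.76%), and 37 were not called. The median change was 0.48, against 0.0065 over all genes, and 40 of the 44 changes were positive, as were 50.5% of all genes. In 24 of the 44 all fetal liver signals lay above all bone marrow signals, as in 13.8% of all genes. In 2 they all lay below, as in 14.2% of all genes. Without Psmc3ip and Psme3ip1 the median was also 0.48, with 6 higher and 1 lower call among 42 genes. Among the 1733 genes within the interquartile range of constitutive brightness, a range chosen after the data had been seen, the median was 0.13, 60.9% of the changes were positive, 5.71% were called higher and 3.64% lower, and 413 genes (23.8%) had all fetal liver signals above all bone marrow signals.

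The number of called constitutive genes depended on single arrays and on scaling. The count of 6 was 1 without bone marrow replicate 1, 0 without bone marrow replicate 2 and 5 without bone marrow replicate 3. It was 2, 0 and 0 without fetal liver replicates 1, 2 and 3 in turn. Over all genes the 350 higher calls also fell, to 305, 264 and 311 without bone marrow replicates 1, 2 and 3. Without fetal liver replicates 1, 2 and 3 they fell to 177, 107 and 105. With averaged probe sets the count was again 6 but the genes differed: Psmd4 (0.24, limma adjusted p = 0.630) and Psmd6 (0.58, limma adjusted p = 0.0571) lost their calls, and Psmc1 and Psmc3 gained one. Of the 6, Psmc5 was called in 13 of 18 settings and Psmd4 in 8 of 17, the most and the fewest. Under median centring 23 were called higher and the median was 0.73, which was 0.48 above that of all genes under the same centring. Centring moves all genes of an array equally, so it cannot change that gap. Under quantile normalization 4 were called higher, as were 378 of all genes, and the median of 0.45 was 0.36 above that of all genes. There 41 of the 44 changes were positive, as were 56.3% of all genes. Positive changes were seen in 39 to 41 of the 44 genes when any 1 array was left out, in 38 when the probe sets of a gene were averaged, and in 31 of 38 without probe sets that can match more than 1 transcript.

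**Figure D3:**
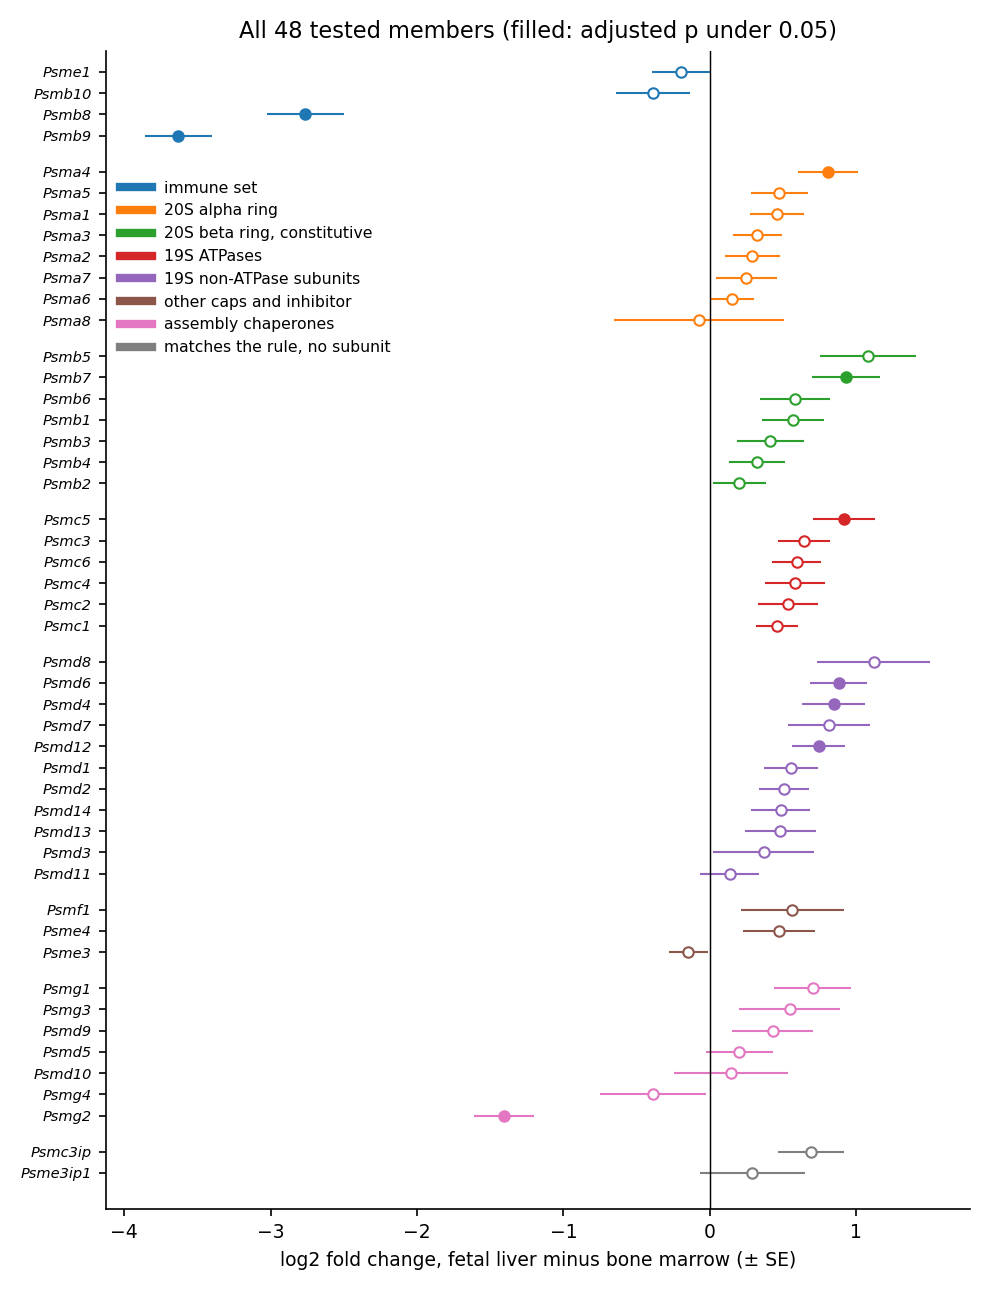
Log2 fold change of fetal liver minus bone marrow (points) with its SE (bars) for the 48 tested genes, grouped and coloured by role, with filled points for an adjusted p under 0.05. Psmb9, Psmb8 and Psmg2 lie clearly to the left of 0, and 31 of the 32 20S and 19S subunits shown outside the immune set lie to its right.

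The core and the cap held the pattern most evenly. Outside the immune set, 32 subunits of the 20S core and the 19S cap that match the rule were tested, with a median change of 0.52. Of these 32, 31 had a positive change (50.5% of all genes had one). In 21 all fetal liver signals lay above all bone marrow signals, as in 13.8% of all genes. The exception among the 32 was Psma8, an alpha subunit of the testis, at -0.07 ± 0.58 (limma adjusted p = 0.963). This change turned positive in 5 of the 17 alternatives tried. The dim Psma8 signals ranged from 225 to 463 in fetal liver MkP and from 145 to 743 in bone marrow MkP. Genes of the core and cap with other symbols are not among the 32. Sem1, listed below with the partners, was at -0.0077 ± 0.19 with overlap of the groups (limma adjusted p = 0.988), and Adrm1 was not tested.

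In the alpha ring, 1 of 8 genes was called higher (3.01% of all genes were) and the median was 0.31. Psma4 had signals of 4075, 4051 and 4461 in fetal liver MkP, against 2074, 2183 and 3028 in bone marrow MkP. The groups were apart, and the change was 0.81 ± 0.20 (limma adjusted p = 0.0382). Psma5 had signals of 7511, 8343 and 9497 in fetal liver MkP, against 6090.3, 4797 and 7573 in bone marrow MkP. Bone marrow replicate 3 reached into the fetal liver range, and the change of 0.48 ± 0.20 was not called (limma adjusted p = 0.182). The other alpha genes ranged from -0.07 for Psma8 to 0.46 for Psma1.

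In the beta ring outside the immune set, Psmb7 was the 1 call among 7 genes (3.01% of all genes were called higher) and the median was 0.57. All 7 changes were positive, from 0.20 for Psmb2, a subunit without a catalytic site, to 1.08 for Psmb5. In 4 of the 7, Psmb1, Psmb4, Psmb6 and Psmb7, all fetal liver signals lay above all bone marrow signals, as in 13.8% of all genes. For Psmb4 the margin was narrow, 8251 on fetal liver replicate 3 against 8188 on bone marrow replicate 3.

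The 6 ATPases of the 19S base form the ring that unfolds the substrate, and all 6 had fetal liver signals above every bone marrow signal, as did 13.8% of all genes, with changes from 0.46 for Psmc1 to 0.92 for Psmc5 and a median of 0.59. Psmc5 had signals of 3143, 3809 and 4229.7 in fetal liver MkP, against 1869, 1694 and 2372 in bone marrow MkP. It was the 1 ATPase of 6 called (3.01% of all genes were called higher), at 0.92 ± 0.21 (limma adjusted p = 0.0278). Psmc3 had signals of 5322, 4751 and 5994 in fetal liver MkP, against 3726, 3241 and 3273 in bone marrow MkP. With 0.65 ± 0.18 and a limma adjusted p of 0.0516 it stayed just short of a call. A further probe set for Psmc2, not the brightest, was at 0.84 with an adjusted p of 0.0391 over all kept probe sets, against 0.53 for the brightest (limma adjusted p = 0.152 over genes).

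The non-ATPase subunits of the 19S cap recognise ubiquitin, remove it and hold the lid together. Of 11 tested, 3 were called higher (3.01% of all genes were), with a median of 0.55. Psmd4, a ubiquitin receptor, had signals of 3726, 3405 and 4018 in fetal liver MkP, against 1747, 1889 and 2656 in bone marrow MkP (0.85 ± 0.21, limma adjusted p = 0.0395). Psmd6, a lid subunit, had signals of 6071, 4784 and 4991 in fetal liver MkP, against 2718, 2487 and 3435 in bone marrow MkP (0.88 ± 0.20, limma adjusted p = 0.0233). Both had every fetal liver array above every bone marrow array, with bone marrow replicate 3 the nearest to the fetal liver arrays. Psmd12, the lid subunit whose window held both motifs, had signals of 4707, 4302 and 4679.7 in fetal liver MkP, against 2905, 2363 and 2935 in bone marrow MkP (0.74 ± 0.18, limma adjusted p = 0.0335). Psmd8, another lid subunit, had the largest positive change of the constitutive genes and no call, with signals of 1626, 2081 and 2246 in fetal liver MkP, against 1124, 455 and 1432 in bone marrow MkP (1.12 ± 0.39, limma adjusted p = 0.110). Its bone marrow arrays were all lower but differed widely among themselves, with replicate 2 the lowest. Psmd14, the deubiquitinase of the lid, was at 0.48 and was not called. Psmd11, a lid scaffold subunit, was at 0.13 by its brightest probe set, the smallest of the group, and was not called. The other kept probe sets for Psmd11 ran from -0.31 to 0.95, none past the threshold over probe sets.

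The other caps and the inhibitor gave no call among 3 genes. Psme4, a cap with known roles in spermatogenesis and DNA repair, had signals of 1401, 1478 and 1498 in fetal liver MkP, against 1245, 819 and 1138 in bone marrow MkP. The groups were apart, and the change of 0.47 ± 0.25 was not called (limma adjusted p = 0.290). Psmf1, an inhibitor of the isolated core, had signals of 664, 441 and 475 in fetal liver MkP, against 263, 449 and 362 in bone marrow MkP, which overlapped (0.56 ± 0.35, limma adjusted p = 0.390). Psme3, the nuclear relative of Psme1, was at -0.15 ± 0.13 (limma adjusted p = 0.571), with 14402 ± 553 in fetal liver MkP and 15965 ± 847 in bone marrow MkP (SD, n = 3 each). Its groups did not overlap, but its change turned to 0.10 under median centring and to 0.12 when its kept probe sets were averaged.

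The assembly chaperones, which help the rings and the base to form and then leave, showed no common direction. Of 7 genes 1 was called lower and 0 higher, against 4.76% and 3.01% of all genes. Positive changes were seen in 5, as in 50.5% of all genes, and the median was 0.20. Psmg2, which with Psmg1 guides the alpha ring, had signals of 1171, 1017 and 1242 in fetal liver MkP, against 3222, 3039 and 2817 in bone marrow MkP (-1.40 ± 0.20, limma adjusted p = 0.00273). Its groups were far apart, but the other probe sets for Psmg2 ran the other way, at 0.44 and 0.95, neither past the threshold over probe sets (limma adjusted p = 0.328 and 0.122). Averaged over its 3 probe sets the change of Psmg2 was -0.0067 (limma adjusted p = 0.989), and the direction of Psmg2 is therefore not settled by these arrays. Psmg1 had signals of 2109.6, 2609 and 2922 in fetal liver MkP, against 1587, 1123 and 2080.1 in bone marrow MkP. Its groups touched without overlap, and the change of 0.70 ± 0.26 was not called (limma adjusted p = 0.138).

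The arrays did not contribute evenly to the constitutive pattern. Relative to each gene's mean over the 6 arrays, the median constitutive gene was at 0.22, 0.19 and 0.27 on fetal liver replicates 1, 2 and 3 and at -0.21, -0.45 and -0.11 on bone marrow replicates 1, 2 and 3. Bone marrow replicate 2 was thus the lowest array and held the lowest signal of the 6 for 27 of the 44 genes, while fetal liver replicate 1 held the highest for 17 and fetal liver replicate 3 for 12. Over all genes the same medians lay between 0.003 and 0.029. Without bone marrow replicate 2, 39 of the 44 changes were positive and 0 were called higher, while 264 of all genes were called higher.

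**Figure D4:**
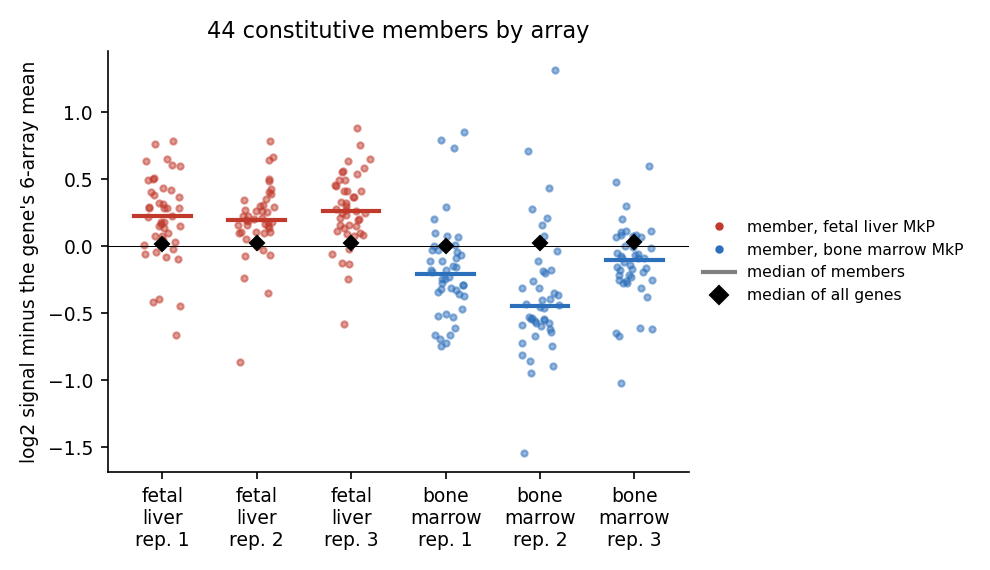
Log2 signal minus the gene's mean over the 6 arrays for the 44 constitutive genes (points) on each array, with their median (bars) and the median of all genes (diamonds), fetal liver MkP in red to the left and bone marrow MkP in blue to the right. The medians of the constitutive genes are 0.22, 0.19 and 0.27 on the fetal liver arrays and -0.21, -0.45 and -0.11 on the bone marrow arrays.

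Further probe sets of the same genes gave a check within the arrays. Beyond the brightest probe set of each gene, 42 passed the filter, of which 25 had the sign of the brightest and 17 the other sign. Of the 16 with a mean signal of at least 1000, 14 had the same sign, and the 2 exceptions belonged to Psmg2 and Psme3.

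Of 16 tested genes of interferon receptors, Janus kinases and interferon-responsive or NF-kB factors, 4 were called lower (4.76% of all genes were) and 0 higher, with a median of -0.70. Ifngr2, a chain of the interferon gamma receptor, ran the other way, at 0.87 ± 0.42, with all fetal liver arrays above all bone marrow arrays and no call (limma adjusted p = 0.259). Nlrc5, which activates transcription of MHC class I genes, had signals of 13.8, 3.23 and 12.7 in fetal liver MkP, against 1479.5, 2937 and 1361 in bone marrow MkP. No fetal liver signal was above background, and the level there was at least 55.3-fold lower (limma adjusted p = 5.77e-05). Nlrc5 passed the filter on dim probe sets only through its bone marrow signals. Irf1, an interferon-induced factor that drives Psmb9 and Tap1 in other cells, had signals of 307, 187 and 379.8 in fetal liver MkP, against 1151, 1118 and 1135 in bone marrow MkP (-2.01 ± 0.33, limma adjusted p = 0.00545). Its fetal liver arrays all lay far under its narrow bone marrow range. The other called genes were Irf8, a factor of the monocyte lineage, at -3.91 ± 0.53 (limma adjusted p = 0.00178) and the interferon receptor chain Ifnar2 at -1.16 ± 0.22 (limma adjusted p = 0.0108). The call of Ifnar2 was lost when its probe sets were averaged (-0.73, limma adjusted p = 0.212) and without fetal liver replicate 2 (-1.11, limma adjusted p = 0.0594).

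Of 14 tested genes of class I antigen processing, 5 were called lower (Tap1, H2-D1, H2-K1, B2m and Tapbp) and 0 higher, with a median of -0.89, and 4.76% of all genes were called lower. The other 9 were not called. B2m, the shared light chain of class I molecules, had signals of 9335, 5944 and 6776 in fetal liver MkP, against 24016, 18060.4 and 22067 in bone marrow MkP (-1.56 ± 0.19, limma adjusted p = 0.00110). The heavy chains H2-K1 and H2-D1 were at -2.24 ± 0.17 (limma adjusted p = 5.77e-05) and -2.35 ± 0.21 (limma adjusted p = 1.88e-04), and the loading factor Tapbp at -1.45 ± 0.24 (limma adjusted p = 0.00478). In each of the 5 called genes the fetal liver signals lay below all bone marrow signals. The 3 positive changes of the list were those of the peptidases Thop1, at 0.94 (limma adjusted p = 0.374), and Tpp2, at 0.33 (limma adjusted p = 0.399), and of the chaperone Calr, at 0.14 (limma adjusted p = 0.747).

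The lists nearest to the constitutive proteasome gave no call. Of 10 tested regulators of its transcription, 0 were higher and 0 lower by limma, 0 had an unadjusted p under 0.05, and the median was -0.012. Nfe2l1, the factor that raises proteasome genes when the proteasome is inhibited, had signals of 425, 906 and 834 in fetal liver MkP, against 799, 774 and 669 in bone marrow MkP, which overlapped (-0.12 ± 0.34, limma adjusted p = 0.879). Vcp, the segregase that helps to release Nfe2l1 from the endoplasmic reticulum, was at 0.42 ± 0.20 (limma adjusted p = 0.244). Of 15 partners of the proteasome outside the gene family symbols, 0 were called by limma, 3 had an unadjusted p under 0.05, and the median was 0.00035. Usp14, a deubiquitinase bound to the 19S cap, was at 0.79 ± 0.26 (limma adjusted p = 0.0935), Zfand5, an activator of the proteasome, at -0.57 ± 0.16 (limma adjusted p = 0.0536), and Pomp, the maturation factor of the core, at 0.08 ± 0.19 (limma adjusted p = 0.863). Of 10 tested genes for ubiquitin supply and transfer, 0 were called by limma, 2 had an unadjusted p under 0.05, and the median was -0.020. Ube2l6, an interferon-induced conjugating enzyme for the ubiquitin-like Isg15, was at -1.57 ± 0.44 (limma adjusted p = 0.0556), and Ube2n, which builds lysine-linked chains in signalling, at 0.64 ± 0.25 (limma adjusted p = 0.158).

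**Figure D5:**
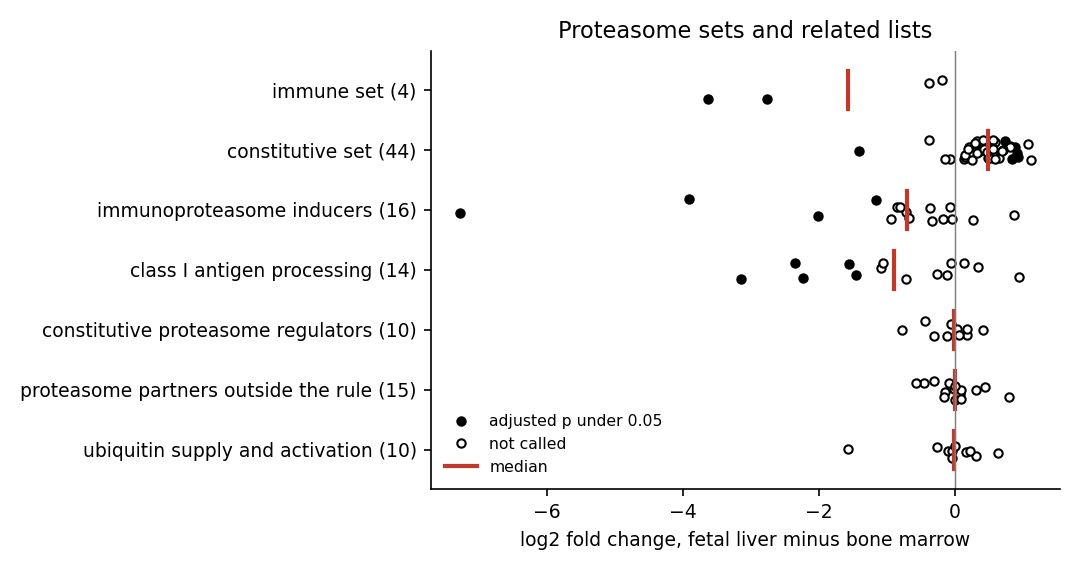
Log2 fold change of fetal liver minus bone marrow for each tested gene (points, filled where the adjusted p is under 0.05) of the immune and constitutive sets and of 5 related lists, with list medians as red bars and the number of tested genes in parentheses. Immune set, inducers and class I processing have medians of -1.57, -0.70 and -0.89, the constitutive set of 0.48, and the 3 remaining lists of -0.012, 0.00035 and -0.020.

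Marker genes of other cell types differed between the tissues, in either direction. All 10 tested granulocyte and monocyte markers (12 listed) were called lower in fetal liver MkP, as were 4.76% of all genes. Of the 10, 3 were above background on all fetal liver arrays. The filter used the mean over all 6 arrays, so a marker absent from 1 tissue could be tested only where the other was bright. The counts of these marker lists are therefore not a test of the lists. The summed signal of the 10 was 4789 to 6718 on fetal liver arrays and 45740 to 62330 on bone marrow arrays. Ltf and Chil3, granule and secreted proteins of these cells, were not above background on any fetal liver array, and S100a9, an abundant neutrophil protein, was at 492, 90.0 and 2.78 in fetal liver MkP, against 7591, 12466 and 9324 in bone marrow MkP. Of 4 tested dendritic cell markers (8 listed) 2 were called lower, and of 4 tested mast cell and basophil markers (6 listed) 3. Of 3 tested macrophage markers (8 listed) 1 was called lower, and of 3 tested lymphoid markers (9 listed) 1. In these lists Cd5l, of macrophages, was at 0.67 (limma adjusted p = 0.789) and Cd79b, of B cells, at 0.42 (limma adjusted p = 0.715). The summed dendritic cell markers were 471 to 683 on fetal liver arrays and 1176 to 3550 on bone marrow arrays, and the mast cell and basophil markers 108 to 309 on fetal liver arrays and 1332 to 2810 on bone marrow arrays. Many such cells express Psmb8 and Psmb9. Their part in the lower Psmb9 and Psmb8 of fetal liver MkP was not tested. In the other direction, 2 of 5 tested erythroid markers (9 listed) and 1 of 4 tested hepatocyte markers (7 listed) were called higher, as were 3.01% of all genes. These lists had 5 and 3 positive changes. Among them were Klf1, an erythroid factor, at 2.42 ± 0.29 (limma adjusted p = 9.44e-04) and Apoa1, a liver apolipoprotein, at 2.51 ± 0.67 (limma adjusted p = 0.0481). Apoa1 was called in 8 of 16 settings, and its limma adjusted p reached 0.163 without fetal liver replicate 2. The summed erythroid markers were 4599 to 13350 on fetal liver arrays and 1905 to 4372 on bone marrow arrays. To the highest sum of each tissue, the listed Slc4a1 gave 8029 on fetal liver replicate 2 and 2853 on bone marrow replicate 2. Slc4a1 was not called (1.30 ± 0.75, limma adjusted p = 0.349), and its groups overlapped. The part of the erythroid markers in the constitutive pattern was not tested.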

How the data were processed

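RNA of sorted MkP was hybridised to 6 one-colour arrays, 3 a tissue. The deposited values are intensities on a linear scale, which the authors made with MAS5, as the submitters' processing notes say. Its version and scaling target were not given in the sources used. The mean after trimming 2% at each end was 500 on every array. Background on an array was the highest of 27 bacterial control probe sets (22.2 to 35.1). The deposited signals were turned into log2(signal + 2.87), 2.87 being their 10th percentile, which understates changes of dim genes. Probe sets above the 40th percentile of mean log2 signal were kept (27022 of 45037). The brightest per gene with 1 symbol was fitted in limma 3.58.1 (R 4.3.3, with lmFit and eBayes with intensity trend). On simulated data with changes in genes drawn from all 11625, the fit called 11 of 67 genes with a log2 change of 1. It called 40 of 67 with 2 and 58 of 66 with 4. It made 8 false calls there. These shares are not specific to the proteasome genes. A gene that was not called may thus still differ. "At least" folds use the higher of the signal and the background in the dim tissue, on mean log2 values. The members and lists were chosen with earlier results of these data known. Named in full are the immune set, its catalytic partners, every called member and the 2 largest changes of each structural group; of related lists, up to 4 called genes with the largest change, or the 2 smallest p, and a few genes in any case. Brd2, H2-Ob and the other class II genes but H2-Aa were chosen after their values were seen. So were Calr, Thop1, Tpp2, Ifngr2, Sem1, Cd5l, Cd79b, Slc4a1, Psmd14 and the other members given by value only. Exact permutation tests used scipy 1.17.1. The labels do not say whether equal replicate numbers share a day or litter, so the main fit used no block. Deviations of same-numbered arrays correlated at 0.15, -0.02 and 0.08, and those of other pairs at -0.146 to 0.100. These values do not decide whether the samples are paired. Alternatives covered offset, scaling, filter, variance trend, probe set choice, floor, block and each array left out.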

Additional observations from a re-analysis of the deposited data

How the results depend on the processing

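Psmb9 and Psmb8 were called lower in every alternative that could fit them, with changes of -3.73 to -3.38 and -2.91 to -2.51. Of 2 lower calls in the immune set, 1 remained without probe sets that can match more than 1 transcript, with a median of -0.39 over 3 genes. The Psmb8 probe set is left out there by construction. Under median centring the median of the immune set was -1.32. The 6 higher calls of the constitutive set became 23 under median centring (median 0.73), 0 without the variance trend and 11 with the replicate number as a block (replicate block), and 0 to 5 with 1 array left out; its 1 lower call became 0 when probe sets were averaged. Over all genes, higher calls were 897 under median centring, 166 without the variance trend and 522 with the replicate block. With 1 array left out, higher calls were 105 to 311 and lower calls 319 to 444. Changes of uncalled genes that changed sign under median centring were Psma8 0.18, Psme1 0.057, Psme3 0.10 and Nfe2l1 0.13, and under quantile normalization Psma8 0.12. With averaged probe sets they were Psma3 -0.832, Psmd7 -0.44, Psmd9 -0.14 and Psme3 0.12. Without probe sets that can match more than 1 transcript they were Psma3 -1.99, Psmb1 -0.12 and Psmd13 -0.76, each from a dimmer probe set. With 1 array left out they were Psma8 (-0.605 to 0.564), Psmd5 (-0.013 to 0.388), Psmd10 (-0.248 to 0.547), Psmd11 (-0.032 to 0.268), Nfe2l1 (-0.323 to 0.221) and Pomp (-0.12 to 0.22). Apart from the omitted probe sets, the cause was not tested. With 3 arrays a tissue, the number of arrays limits precision, and no flag on extreme samples applies to groups of 3.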
